A study of Mus musculus with 6 samples.

Results

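Cdk6 and 9 other genes that govern the G1 phase were followed in cultured mouse bone marrow-derived macrophages that lack retinoid X receptors and in wild-type macrophages. The 10 genes are the cyclin-dependent kinase genes Cdk6, Cdk4 and Cdk2, the D cyclin genes Ccnd1, Ccnd2 and Ccnd3, the CDK inhibitor genes Cdkn1a, Cdkn1b and Cdkn2c, and Rb1. They were taken by symbol from a count table of 45193 genes, of which 12011 passed a filter on low counts, and all 10 were among those tested. The set was chosen on values of this same comparison, so the levels and fold changes of the 10 genes are given as a description, without p-values.

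Messenger RNA was sequenced from 6 libraries, 3 per genotype, and the deposited values are raw counts per gene. The knockout (KO) macrophages are labelled RXRab KO with the genotype RXRafl/flLysMCre RXRb-/-, which combines loxP-flanked Rxra alleles, a Cre driven from the lysozyme M locus and loss of Rxrb. The wild-type (WT) macrophages carry the genotype label WT, and both groups have the strain label C57BL/6J. All 6 cultures grew from marrow of femurs and tibiae for 6 days with L929-conditioned medium, a source of the growth factor CSF-1, and then received serum-free medium and DMSO for 3 hours as vehicle, with no receptor ligand. The labels give no age and call the replicates biological without naming animals, so each SD below measures the spread between these libraries. Each SE rests on these libraries too, with a dispersion moderated over all tested genes. LysM-Cre is active in the myeloid lineage, and the WT cells are not described as carrying Cre, so loss of the receptors, Cre and the altered lysozyme locus cannot be told apart.

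Progress through G1 depends on D cyclins, which accumulate when growth factors such as CSF-1 signal and which bind CDK4 or CDK6. These kinases, and later CDK2 with cyclin E, phosphorylate the retinoblastoma protein, which then releases E2F factors that drive genes of DNA synthesis. INK4 proteins such as p18 (Cdkn2c) bind CDK4 and CDK6 alone, whereas the CIP/KIP proteins p21 (Cdkn1a) and p27 (Cdkn1b) bind cyclin-CDK complexes. Macrophages grown from marrow divide in CSF-1 and slow down as they mature.

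The sequence around the start of 3 genes is shown because these genes stand for the kinase that was higher in KO cells, its close relative that was not, and the inhibitor that was lower. Each window runs from 250 bases before to 50 bases after a RefSeq start in GRCm38.p6, 5′ to 3′ on the strand of the gene. Capitals mark matches, on either strand, to the E-box CACGTG, the nuclear receptor half-site AGGTCA, the GC box GGGCGG and 4 E2F sites spelled TTTGGCGC, TTTCCCGC, TTTCGCGC and TTTGCCGC.
Cdk6: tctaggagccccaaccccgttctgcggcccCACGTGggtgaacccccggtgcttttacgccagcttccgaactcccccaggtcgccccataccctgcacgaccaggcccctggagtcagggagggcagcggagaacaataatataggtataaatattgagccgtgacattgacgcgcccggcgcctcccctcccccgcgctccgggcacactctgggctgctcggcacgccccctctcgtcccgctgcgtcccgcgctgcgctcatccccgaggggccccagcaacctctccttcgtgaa
Cdk4: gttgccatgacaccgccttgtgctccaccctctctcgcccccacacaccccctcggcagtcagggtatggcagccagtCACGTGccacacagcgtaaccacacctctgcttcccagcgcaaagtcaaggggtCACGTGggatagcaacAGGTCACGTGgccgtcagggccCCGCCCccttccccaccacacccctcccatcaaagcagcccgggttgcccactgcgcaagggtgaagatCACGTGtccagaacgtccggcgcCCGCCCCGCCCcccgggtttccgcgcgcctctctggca
Cdkn2c: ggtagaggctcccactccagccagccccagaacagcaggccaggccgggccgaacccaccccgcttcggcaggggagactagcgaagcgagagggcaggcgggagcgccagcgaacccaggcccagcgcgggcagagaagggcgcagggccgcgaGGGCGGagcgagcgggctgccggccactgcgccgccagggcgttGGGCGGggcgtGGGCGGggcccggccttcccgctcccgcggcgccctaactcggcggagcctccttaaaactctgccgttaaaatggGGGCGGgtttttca
The Cdk6 window lies at chr5:3343643-3343942 on the plus strand and holds 1 E-box, 220 bases before the start. This window lies inside the gene as annotated in GRCm38, which begins at 3341485. The Cdk4 window at chr10:127063285-127063584 on the plus strand holds 4 E-boxes, 1 half-site that overlaps the E-box at -98, and 3 GC boxes. The Cdkn2c window shown, at chr4:109666707-109667006 on the minus strand, holds 4 GC boxes and no match to the other motifs. It too lies inside the annotated gene, whose 5′ end is at 109667189. A second Cdkn2c start, with its window at chr4:109665323-109665622, has 1 half-site at -180, 1 E-box at 34 and no GC box. Over 32851 RefSeq windows of the same length, 7.15% held the E-box, 16.3% the half-site, 35.7% the GC box and 2.26% an E2F site. These matches describe letters in the window and are not evidence of binding. RefSeq windows were matched for 7 of the 10 genes, and the E2F match among them was in Cdk2, 140 bases before the start.

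Library totals were 17250051 to 25091019 counts in KO and 7880320 to 14957253 in WT, so depth went with genotype. Levels are given as CPM, counts divided by the TMM-scaled library total and put on one common scale. Correlations of log2 CPM between libraries ranged from 0.974 to 0.996. As a check of the labels, Rxrb stood at 9.27 CPM in KO against 66.7 CPM in WT, Lyz2 at 28.4 CPM in KO against 15258 CPM in WT, and Rxra at 109 CPM in KO against 104 CPM in WT, although a count over all of Rxra cannot show excision between loxP sites. Over all tested genes, 2327 were called different at an adjusted p under 0.05 (edgeR quasi-likelihood test, Benjamini-Hochberg), which is 19.4% of those tested. The calls were 1173 higher in KO, or 9.77%, and 1154 lower in KO, or 9.61%, and the median log2 fold change was -0.0048. The count fell to 1383 without KO replicate 1 and to 1286 without WT replicate 1.

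The genotypes also differed in transcripts of the sex chromosomes, which were examined after their values were seen. Xist, expressed from the inactive X chromosome, had 209, 267 and 236 CPM in the KO libraries and 0 counts in each WT library. The Y-linked gene Ddx3y had 49.9, 49.7 and 55.4 CPM in KO and 108, 112 and 101 CPM in WT, and Eif2s3y, Kdm5d and Uty were also lower in every KO library than in any WT library. Each KO library thus held both Xist and Y-linked transcripts, and the labels do not give sex. For every difference below, sex make-up and genotype cannot be told apart.

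None of the 11 macrophage markers was at 0, and 3 rose and 3 fell. Over all tested genes 9.77% rose and 9.61% fell, and all marker counts here are to be read beside these shares. Cd14 (log2 fold change 1.08), Itgam (0.65) and Csf1r (0.39) rose, and Lyz2, Mrc1 (-0.46) and Fcgr1 (-0.37) fell, whereas Adgre1, which encodes F4/80, stood at 1896 CPM in KO and 1923 CPM in WT. The 11 markers summed to 9690 to 10946 CPM in KO and 24376 to 24991 CPM in WT, but Lyz2, the Cre locus, is the most abundant of them in WT. Without Lyz2 the other 10 summed to 9655 to 10919 CPM in KO and 9082 to 9986 CPM in WT, and the groups overlapped. Markers of neutrophils and their precursors summed to 1065 to 1190 CPM in KO and 1147 to 1286 CPM in WT, with Ngp, a granule protein gene, the most abundant (313 and 377 CPM), and 1 of 11 rose and 4 fell. Progenitor markers summed to 14.2 to 18.8 CPM in KO and 10.2 to 12.4 CPM in WT, led by Sox4 (7.73 and 4.26 CPM). Dendritic cell markers (1.07 to 2.39 CPM in KO, 0.98 to 2.08 in WT, led by Zbtb46), B and T cell markers (1.95 to 3.43 and 4.70 to 5.88, led by Cd79b) and stromal markers (4.49 to 10.9 and 10.04 to 12.1, led by Col1a1) were low. Erythroid and megakaryocyte markers summed to 68.4 to 88.1 CPM in KO and 80.6 to 109 CPM in WT, mostly Pf4, and 4 of the 9 were at 0 in all libraries. Of the tested progenitor markers, 1 of 6 rose and 0 fell. A fall was called for 1 of 1 tested B and T cell markers and 1 of 3 stromal markers. The same held for 1 of 3 erythroid and megakaryocyte markers, and 0 dendritic cell markers passed the filter. The part of these other cells in the results below was not tested.

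Among the 10 G1 genes, Cdk6, Ccnd1 and Rb1 were called higher in KO and Cdkn2c was called lower, so 4 of 10 were called, beside 19.4% of all tested genes. The 3 KO values lay apart from the 3 WT values in 6 of the 10, beside 36.9% of all tested genes, with 3 higher and 3 lower. The median log2 fold change of the 10 was 0.0088. Since the set was chosen on this comparison, nothing is read from these shares. Cdk6 had the highest fold change of the 10 and ranked 350 from the top of all 12011 tested genes. Levels below are TMM-scaled CPM, as mean ± SD over 3 libraries per genotype, and fold changes are log2 of KO over WT with the SE that corresponds to the F test.

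**Figure D1:**
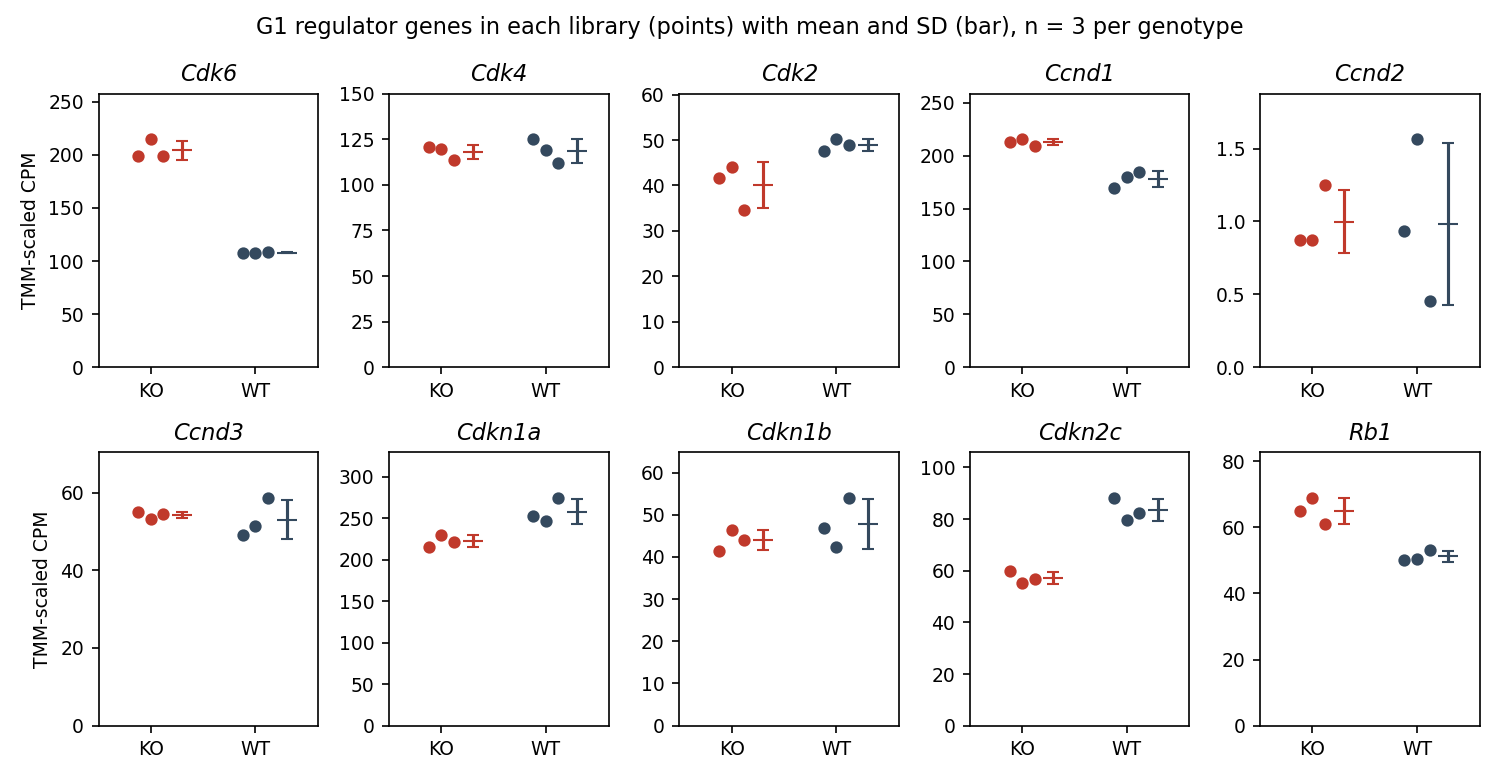
TMM-scaled CPM (vertical axes from 0, one scale per gene) of the 10 G1 genes in KO (left, red) and WT (right, dark) libraries, with bars for mean and SD, n = 3 each. Cdk6 in KO sits between 199 and 215 CPM, above all WT libraries near 108 CPM, whereas Cdk4, Ccnd2, Ccnd3 and Cdkn1b overlap.

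Cdk6 (ENSMUSG00000040274), the kinase gene at chromosome 5, 3341485 to 3531008 in GRCm38 on the plus strand, had 199, 215 and 199 CPM in KO replicates 1, 2 and 3. In WT replicates 1, 2 and 3 it had 108, 108 and 108 CPM. The groups did not overlap, and each KO library stood above each WT library. The means were 204 ± 9.3 CPM in KO and 108 ± 0.39 CPM in WT, a log2 fold change of 0.92 (SE 0.077), or 1.89-fold. The coefficient of variation was 4.54% among KO and 0.362% among WT libraries. Counting error alone gives 1.36% to 1.71% per KO library and 2.46% to 3.48% per WT library, so the WT spread understates the uncertainty of the WT level. The level rested on 16010 reads over the 6 libraries. Over 15 alternative settings the fold change stayed between 0.88 and 0.94 and the call was kept in each.

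Cdk4 (ENSMUSG00000006728), whose product shares D cyclins with CDK6, had 121, 120 and 114 CPM in KO and 125, 119 and 112 CPM in WT. The groups overlapped. The means were 118 ± 3.8 CPM in KO and 119 ± 6.5 CPM in WT, with a log2 fold change of -0.01 (SE 0.080). Its sign depended on the setting and it was called under none of them. Cdk4 shares 641 exon bases with Tspan31 on the opposite strand, and Tspan31 was not called either (log2 fold change 0.00065, edgeR adjusted p = 0.996). How the authors' counting treated strand is not given in the sources used here.

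Cdk2 (ENSMUSG00000025358), the kinase that acts with cyclins E and A, had 41.8, 44.1 and 34.5 CPM in KO and 47.5, 50.2 and 48.8 CPM in WT. All KO values lay below all WT values, with KO replicate 3 the lowest. The means were 40.1 ± 5 CPM in KO and 48.9 ± 1.3 CPM in WT, a log2 fold change of -0.28 (SE 0.105) that did not pass the threshold. Cdk2 lies 11.42 Mb and Cdk4 9.78 Mb from Lyz2, on chromosome 10. Within 15 Mb of Lyz2, 15.7% of the 121 tested genes were called, beside 19.4% of all tested genes.

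Ccnd1 (ENSMUSG00000070348) encodes cyclin D1, the D cyclin induced by CSF-1 in macrophages. It had 213, 216 and 210 CPM in KO and 170, 180 and 185 CPM in WT, and the groups did not overlap. The means were 213 ± 3.1 CPM in KO and 178 ± 7.7 CPM in WT, a log2 fold change of 0.26 (SE 0.075). The call was lost without KO replicate 1 (0.26), KO replicate 2 (0.24), WT replicate 1 (0.22) or WT replicate 2 (0.26), each value being the log2 fold change in that setting. It was also lost with no low-count filter (0.27) and with counts thinned to the smallest library (0.24). Ccnd1 shares 1100 exon bases with LTO1 on the opposite strand, so its count is uncertain to that extent. LTO1 itself was not called (26.5 CPM in KO and 23.6 CPM in WT, log2 fold change 0.17, edgeR adjusted p = 0.286).

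Ccnd2 (ENSMUSG00000000184), the gene of cyclin D2, had 15, 22 and 23 reads in KO and 9, 12 and 7 reads in WT. That is 0.872, 0.873 and 1.25 CPM in KO and 0.934, 1.57 and 0.457 CPM in WT. The groups overlapped, the means were 0.998 ± 0.22 CPM in KO and 0.985 ± 0.56 CPM in WT, and a difference was not detectable at this depth (fitted log2 fold change 0.15, SE 0.451). Ccnd3 (ENSMUSG00000034165), the gene of cyclin D3, had 54.9, 53.3 and 54.4 CPM in KO and 49.0, 51.5 and 58.7 CPM in WT. These groups overlapped too, with WT replicate 3 the highest of the 6, and the log2 fold change was 0.03 (SE 0.093). Ccnd3 shares 361 exon bases with Bysl on the opposite strand and short stretches with a processed copy, Ccnd3-ps.

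Cdkn1a (ENSMUSG00000023067) encodes p21, an inhibitor of cyclin-CDK complexes that p53 induces. It had 216, 230 and 221 CPM in KO and 253, 247 and 275 CPM in WT, so all KO values lay below all WT values. The means were 222 ± 7.1 CPM in KO and 258 ± 15 CPM in WT. The log2 fold change of -0.22 (SE 0.078) did not pass the threshold with edgeR and did with DESeq2. Cdkn1a lies 4.93 Mb and Ccnd3 13.47 Mb from Rxrb on chromosome 17. Within 15 Mb of Rxrb, 22.5% of 396 tested genes were called, beside 19.4% of all tested genes.

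Cdkn1b (ENSMUSG00000003031), the gene of p27, had 41.5, 46.3 and 44.1 CPM in KO and 46.9, 42.3 and 54.1 CPM in WT. The groups overlapped, and the log2 fold change was -0.13 (SE 0.105). Cdkn2c (ENSMUSG00000028551) encodes the INK4 inhibitor p18, which binds CDK6 and CDK4. It had 59.8, 55.1 and 56.8 CPM in KO and 88.3, 79.8 and 82.5 CPM in WT. The groups did not overlap, with every KO library below every WT library. The means were 57.2 ± 2.4 CPM in KO and 83.5 ± 4.3 CPM in WT, a log2 fold change of -0.55 (SE 0.085). The call was kept under all 15 alternative settings, with fold changes of -0.58 to -0.51.

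Rb1 (ENSMUSG00000022105), the retinoblastoma gene whose product these kinases phosphorylate, had 64.9, 69.0 and 60.9 CPM in KO and 50.2, 50.3 and 53.1 CPM in WT. The groups did not overlap. The means were 64.9 ± 4 CPM in KO and 51.2 ± 1.6 CPM in WT, a log2 fold change of 0.34 (SE 0.088). The call was lost without KO replicate 1 (log2 fold change 0.34), KO replicate 2 (0.29) or WT replicate 1 (0.32). Rb1 is uncertain for another reason, since it overlaps 2 genes on the opposite strand that were themselves higher in KO. Lpar6, a lysophosphatidic acid receptor gene within Rb1, shares 408 exon bases with it and had 84.0 CPM in KO and 43.7 CPM in WT (log2 fold change 0.94, edgeR adjusted p = 3.1e-05). Rcbtb2 shares 488 exon bases and had 189 CPM in KO and 114 CPM in WT (0.73, edgeR adjusted p = 9.1e-05). Whether reads of these genes were counted for Rb1 was not tested.

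**Figure D2:**
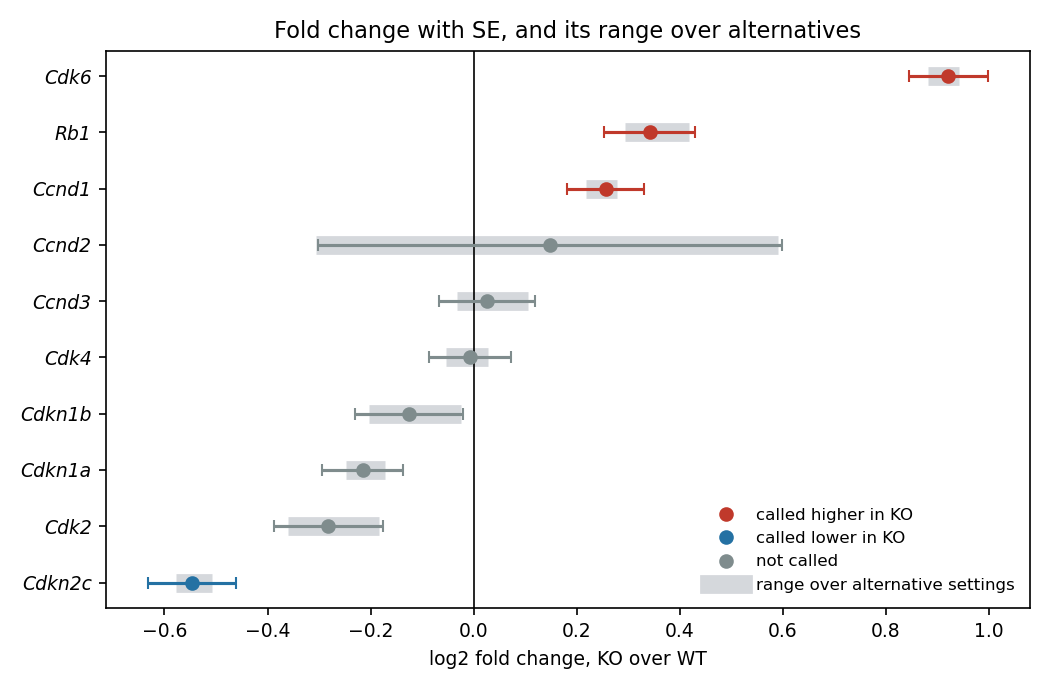
Log2 fold change of KO over WT (horizontal axis) for the 10 G1 genes, with SE bars and, in grey bands, the range over 15 alternative settings (13 for Ccnd2). Cdk6 at 0.92 and Cdkn2c at -0.55 stand at the ends with narrow bands, and the bands of Ccnd2, Cdk4 and Ccnd3 span 0.

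Levels of different genes were compared per kb of exon. On this scale, with all exons as the length, Cdkn1a was the highest of the 10, followed by Ccnd1, Cdk4 and Cdkn2c, in both genotypes. Cdk6 was the 5th in KO at 14.6 ± 0.66 CPM per kb and the 8th in WT at 7.71 ± 0.028 CPM per kb, and Ccnd2 was the 10th in both. Neighbours in this order can lie within each other's spread, as Ccnd1 and Cdk4 did in WT (37.8 ± 1.6 and 36.6 ± 2 CPM per kb), and the order was not tested. Per kb of the longest transcript, Cdk4 stood above Ccnd1 in both genotypes (57.5 and 56.9 CPM per kb in KO, 57.8 and 47.6 in WT), and Cdk6 was the 5th in KO and the 9th in WT. Cdk6 made up 27.7%, 29.4% and 28.9% of the summed level of Cdk4 and Cdk6 in KO, against 16.6%, 17.4% and 18.3% in WT. Every KO library was above every WT library in this share, which averaged 28.7% ± 0.88 in KO and 17.4% ± 0.83 in WT. With the length of the longest transcript in place of all exons, the shares were 23.6% in KO and 13.9% in WT.

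Cyclin D1 was the main D cyclin transcript in both genotypes. Ccnd1 held 87.8% ± 0.31 of the summed D cyclin level in KO and 86.0% ± 0.60 in WT, on the scale per kb of exon. Ccnd3 held 11.998% in KO and 13.7% in WT, and Ccnd2 0.206% in KO and 0.240% in WT. Summed over roles, in CPM and not per kb, the 3 kinase genes reached 362 ± 16 CPM in KO and 275 ± 5.6 CPM in WT, with no overlap. Of the 3, only Cdk6 was higher in KO (204 and 108 CPM), while Cdk4 overlapped (118 and 119 CPM) and Cdk2 was lower (40.1 and 48.9 CPM). The 3 inhibitor genes summed to 324 ± 7.2 CPM in KO and 389 ± 21 CPM in WT. These sums restate the values that chose the genes.

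**Figure D3:**
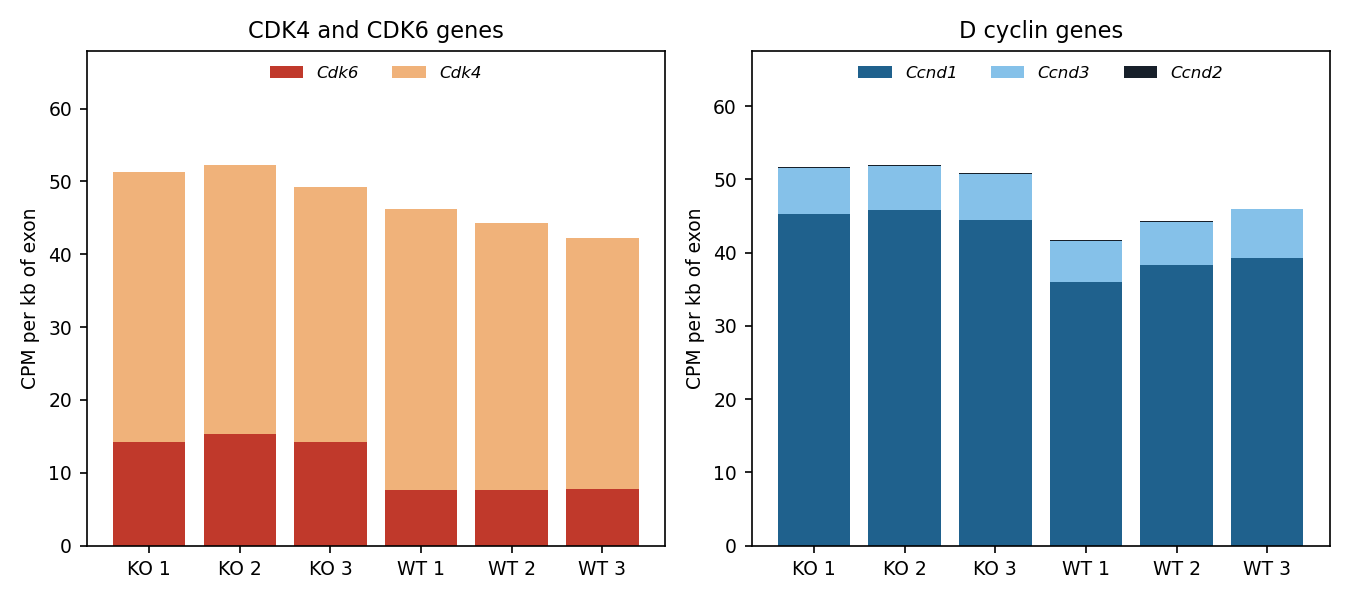
Stacked bars of CPM per kb of exon (from 0) for Cdk6 and Cdk4 (left) and for the D cyclin genes (right) in each KO and WT library. The Cdk6 part is larger in every KO library, at 27.7% to 29.4% of the bar against 16.6% to 18.3% in WT, and Ccnd1 fills most of each D cyclin bar.

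The genes that neighbour Cdk6 were examined to see how far along the chromosome the difference reached. Within 1 Mb of Cdk6, 12 genes were tested, and edgeR called 0 of them, beside 19.4% of all tested genes. All 12 start downstream of the Cdk6 start, at 202 to 851 kb, so the other side was not sampled. So few genes cannot settle how far the difference reached. At an unadjusted p under 0.05 there were 3 higher and 2 lower. The share of all tested genes at that unadjusted threshold was not computed, so these counts have no background beside them. DESeq2, limma-voom and limma on the authors' log2 values each called 0. Among the more abundant neighbours, Gatad1 had 69.3 CPM in KO and 80.1 CPM in WT (log2 fold change -0.21, SE 0.092) and Ankib1 had 62.5 and 55.7 CPM (0.17, SE 0.089). The nearest tested gene, Fam133b, had 20.6 CPM in KO and 25.9 CPM in WT (-0.31, SE 0.144). These 3 were chosen for their level or position.

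**Figure D4:**
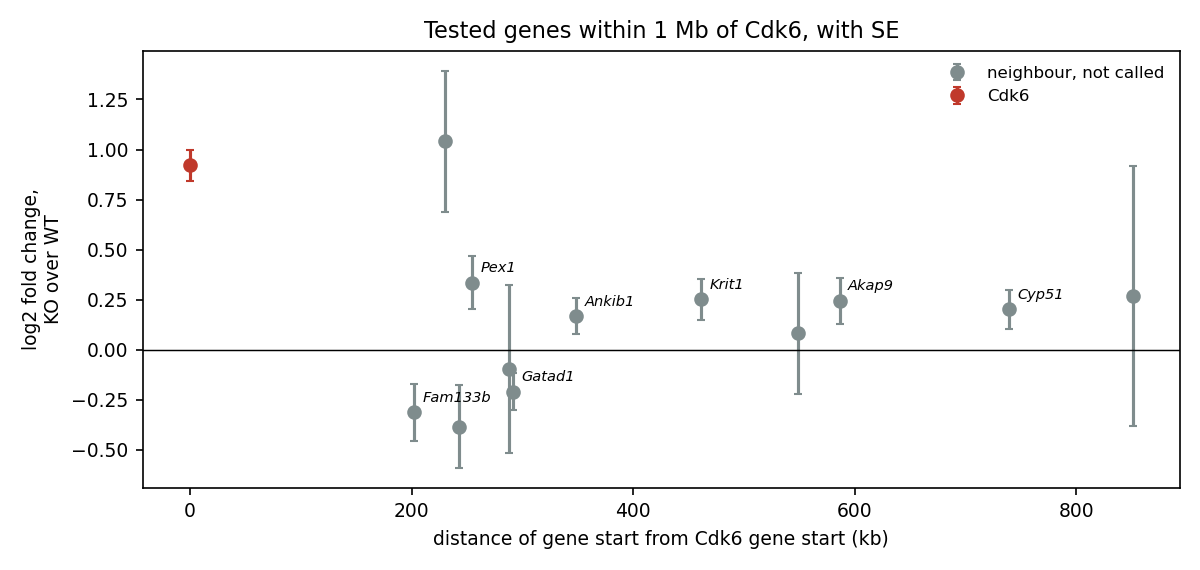
Log2 fold change of KO over WT with SE (vertical axis) against the distance of each gene's start from the Cdk6 start in kb (horizontal axis), for Cdk6 (red) and the 12 tested genes within 1 Mb (grey). Cdk6 at 0.92 lies above the named neighbours, and 1 unnamed gene with 1.51 CPM in KO and 0.717 CPM in WT lies at 1.04 with a wide error.

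The genes whose pattern over the 6 libraries was most like that of Cdk6 were found among 9583 genes, by the root mean square difference in log2 CPM from each gene's WT mean. They were Padi2 (0.0485), which encodes a peptidylarginine deiminase, St6gal1 (0.0496), a sialyltransferase gene, and Slc40a1 (0.0540), the gene of the iron exporter ferroportin. AI467606 (0.0580) and Rbpj (0.0581), which encodes the DNA-binding partner of Notch, followed. Padi2 had 75.6, 75.5 and 73.0 CPM in KO and 39.7, 38.3 and 37.6 CPM in WT. Slc40a1 had 478, 499 and 450 CPM in KO and 257, 236 and 264 CPM in WT. In both, every KO library lay above every WT library. That follows from choosing them for likeness to Cdk6 over these same libraries and is not a separate result. The likeness says nothing of shared control.

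Outside the 10, 12 lists of cell cycle and growth control held 187 genes, of which 181 were tested. Of these, 58 fell, 10 rose and 113 did not pass. Thus 32.0% fell beside 9.61% of all tested genes, and 10 of 181 rose beside 9.77% of all tested genes. The counts of single lists below are to be read beside the same 2 shares. Their median log2 fold change was -0.13, beside -0.0048 over all tested genes. The number that rose was 5 without KO replicate 1 and 6 without KO replicate 2, WT replicate 1 or WT replicate 2. The S phase list held 17 falls and the G2 and M phase list 20, and the lists were chosen with earlier results of these data known. Genes given below with an adjusted p were taken for the smallest values in their list. Their adjusted p-values therefore describe this fit and are not independent evidence. In bulk RNA, fewer dividing cells and less of a transcript per cell cannot be told apart.

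**Figure D5:**
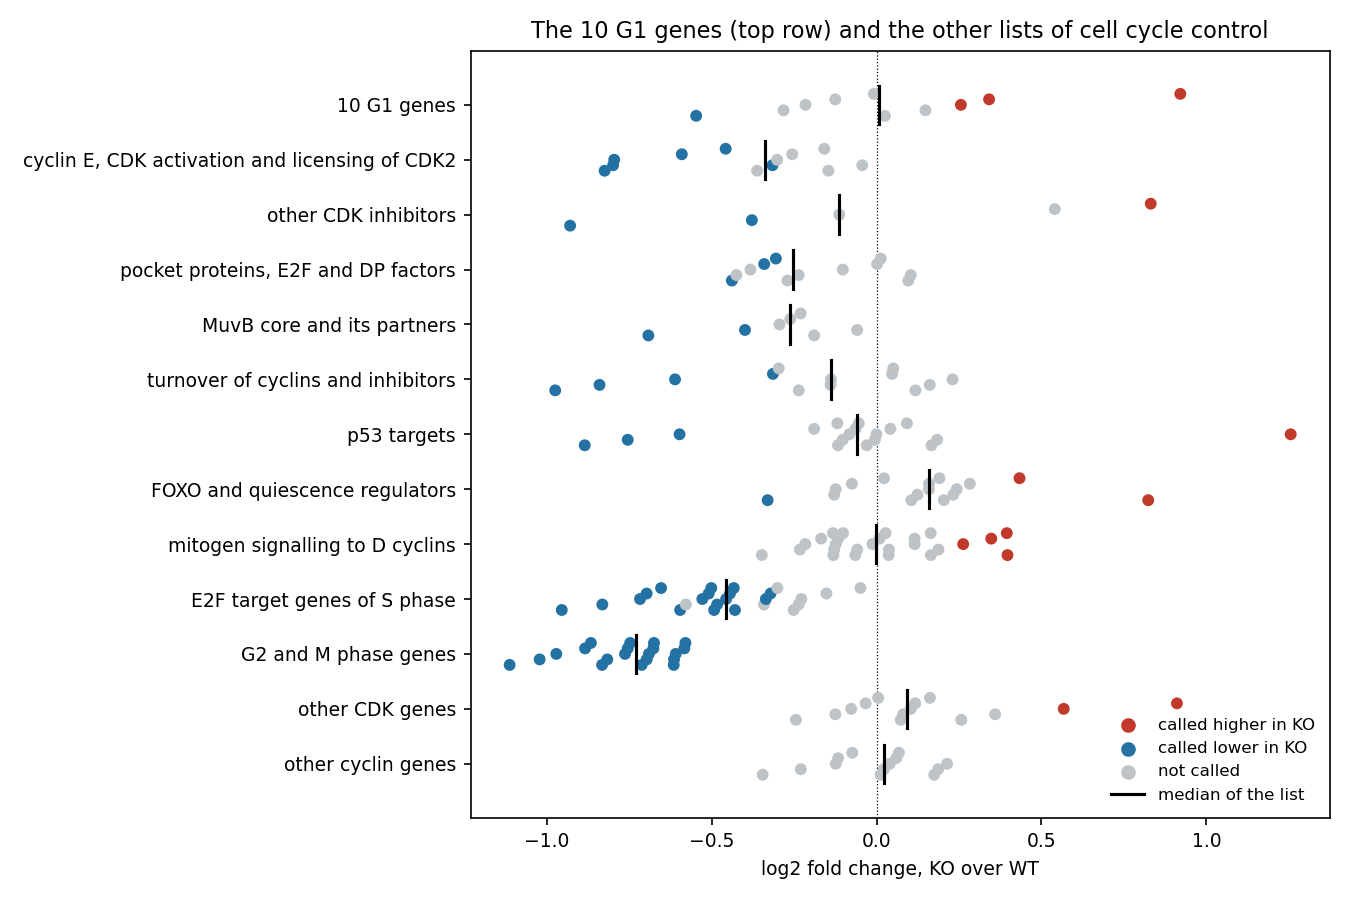
Log2 fold change of KO over WT (horizontal axis) for the 10 G1 genes (top row) and the tested genes of 12 other lists, red where called higher in KO, blue where called lower, grey where not called, with a black line at each median. All 20 G2 and M phase genes lie at -0.58 or lower, whereas the other cyclin genes lie between -0.35 and 0.21.

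In the list of cyclin E, CDK activation and licensing of CDK2, 6 of 12 tested genes fell and 6 did not pass, with a median log2 fold change of -0.34. Ccna2, the gene of cyclin A2, had 54.8 ± 2.7 CPM in KO and 95.1 ± 3.8 CPM in WT (log2 fold change -0.80, edgeR adjusted p = 3.17e-05). Cdk1, the mitotic kinase gene, had 58.1 ± 3.5 CPM in KO and 101 ± 8.9 CPM in WT (-0.80, edgeR adjusted p = 7.63e-05). Cyclin E itself is the partner of CDK2 at the end of G1. Of its genes, Ccne2 had 20.9, 22.1 and 20.3 CPM in KO and 37.2, 26.1 and 31.7 CPM in WT (-0.59, edgeR adjusted p = 0.00589). Ccne1 also fell (-0.46). Without KO replicate 1 the number that fell was 3. Among the transcripts of the CDK-activating kinase, Cdk7 stood at -0.16, Ccnh at -0.26 and Mnat1 at -0.04, each short of the threshold.

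The other CDK inhibitor genes went in different directions. Of 5 tested, 1 rose, 2 fell and 2 missed the threshold (median -0.11). Cdkn1c, which encodes the CIP/KIP protein p57, had 59.4, 50.3 and 70.4 CPM in KO and 31.0, 43.3 and 28.0 CPM in WT (log2 fold change 0.83, edgeR adjusted p = 0.00333). Every KO library was above every WT library. Cdkn3, a phosphatase gene that acts on CDKs, had 4.56 ± 0.52 CPM in KO and 8.72 ± 2.2 CPM in WT (-0.93, edgeR adjusted p = 0.0053). Its call was lost with counts thinned to the smallest library (-0.75). Cdkn2d, the gene of the INK4 inhibitor p19, had 27.7 ± 1.2 CPM in KO and 36.0 ± 3.9 CPM in WT (-0.38, edgeR adjusted p = 0.0257). The Cdkn2d call was lost without KO replicate 1 (-0.40), KO replicate 2 (-0.34) or WT replicate 1 (-0.29).

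Of the pocket proteins, E2F and DP factors, 3 of 12 fell and 9 did not pass, with a median of -0.25. E2f2, an activator E2F, had 34.6 ± 1.9 CPM in KO and 43.8 ± 1.5 CPM in WT (log2 fold change -0.34, edgeR adjusted p = 0.0212). The repressors E2f6 (-0.31, edgeR adjusted p = 0.03) and E2f7 (-0.44, edgeR adjusted p = 0.046) also fell. The calls depended on single libraries, since edgeR gave 0 falls in the list without KO replicate 1 and 1 without WT replicate 1. E2f6 lost its call also without KO replicate 3 (-0.27) or WT replicate 2 (-0.31), E2f2 without KO replicate 2 (-0.30) or WT replicate 2 (-0.33), and E2f7 without KO replicate 2 (-0.39) or WT replicate 3 (-0.31). E2f7 was also not called by DESeq2 (-0.44) or by limma on the authors' log2 values (-0.42), nor E2f6 with no low-count filter (-0.30). The relatives of Rb1, Rbl1 (-0.27) and Rbl2 (0.10), did not pass.

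MuvB is the core complex that joins pocket proteins to repress cell cycle genes in quiescence, and B-Myb or FOXM1 to activate them later. In this list 2 of 7 fell and 5 did not pass (median -0.26). Foxm1 had 29.6 ± 2.7 CPM in KO and 47.7 ± 3.8 CPM in WT (log2 fold change -0.69, edgeR adjusted p = 0.000573), and this call was kept in every setting. Mybl2, the B-Myb gene, had 14.4 ± 1.4 CPM in KO and 18.9 ± 2.1 CPM in WT (-0.40, edgeR adjusted p = 0.0457). Its call was lost without any one of KO replicate 1 (-0.48), KO replicate 2 (-0.36), KO replicate 3 (-0.36), WT replicate 2 (-0.36) or WT replicate 3 (-0.34). It was also lost with DESeq2 (-0.40), limma on the authors' log2 values (-0.39), no low-count filter (-0.39) and thinned counts (-0.34), and 1 of the list fell in each of these settings. The core subunits Lin9, Lin37, Lin52, Lin54 and Rbbp4 ranged from -0.29 to -0.06 without passing.

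Of 13 genes for the turnover of cyclins and inhibitors, 4 fell and 9 did not pass (median -0.14). Cks1b, whose product helps the ubiquitin ligase SCF-SKP2 to recognise p27, had 21.9, 20.3 and 24.01 CPM in KO and 45.9, 48.9 and 36.0 CPM in WT (log2 fold change -0.97, edgeR adjusted p = 0.000169). Fbxo5, which encodes the anaphase-promoting complex inhibitor EMI1, had 21.7 ± 0.91 CPM in KO and 33.2 ± 1.3 CPM in WT (-0.61, edgeR adjusted p = 0.000949). Cks2 had 4.11 ± 0.81 CPM in KO and 7.32 ± 1.5 CPM in WT (-0.84, edgeR adjusted p = 0.0135). Leaving out WT replicate 1 ended its call (-0.74), and 2 of the list fell in that setting. Skp2 itself (-0.24) did not pass.

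Of the genes of DNA synthesis under E2F control, 17 of 25 fell and 8 did not pass, with a median log2 fold change of -0.46. Tk1, the thymidine kinase gene, had 46.8, 43.9 and 45.1 CPM in KO and 90.3, 86.1 and 86.7 CPM in WT (-0.95, edgeR adjusted p = 6.13e-06). The ribonucleotide reductase subunit genes Rrm2 (77.0 ± 11 CPM in KO and 127 ± 16 CPM in WT, -0.72, edgeR adjusted p = 0.000945) and Rrm1 (168 ± 5.7 and 239 ± 22 CPM, -0.51, edgeR adjusted p = 0.00124) fell as well. All 20 genes of G2 and M phase fell, with a median of -0.73 and a range of -1.11 to -0.58. Birc5, the survivin gene, had 42.4, 40.0 and 42.1 CPM in KO and 81.6, 93.5 and 78.0 CPM in WT (-1.02, edgeR adjusted p = 1.03e-05). Ube2c, the ubiquitin-conjugating enzyme gene of the anaphase-promoting complex, had 25.1 ± 2.3 CPM in KO and 54.3 ± 6.8 CPM in WT (-1.11, edgeR adjusted p = 2.7e-05). Tpx2, a spindle assembly gene, had 53.7 ± 1.6 CPM in KO and 88.0 ± 0.71 CPM in WT (-0.71, edgeR adjusted p = 5.7e-05). Both lists kept their counts within 1.5 times under every setting.

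Of 26 tested genes of mitogen signalling to D cyclins, 4 rose, 22 missed the threshold and edgeR gave 0 falls (median -0.0015). Csf1r, the CSF-1 receptor gene, had 3058, 3009 and 2676 CPM in KO and 2093, 2186 and 2369.9 CPM in WT (log2 fold change 0.39, edgeR adjusted p = 0.00575). Mtor had 58.2 ± 0.84 CPM in KO and 45.7 ± 1.8 CPM in WT (0.35, edgeR adjusted p = 0.0121), and lost its call without KO replicate 1 (0.35) or KO replicate 2 (0.34). Pik3r1, a regulatory subunit gene of PI3 kinase, had 88.1 ± 4.8 CPM in KO and 66.5 ± 11 CPM in WT (0.40, edgeR adjusted p = 0.0248), and lost its call without KO replicate 1 (0.35), WT replicate 1 (0.32) or WT replicate 2 (0.33). The number that rose was 1 without KO replicate 1 and 2 without KO replicate 2, WT replicate 1 or WT replicate 2. For the fall, edgeR gave 2 genes at an unadjusted p under 0.05, DESeq2 and both limma fits gave 0, and edgeR gave 2 without WT replicate 3 and 1 with no low-count filter. Myc (-0.22), whose product activates Ccnd2 among other genes, did not pass.

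In the list of p53 targets, which also held the p53 gene Trp53, 18 genes were tested. Of these, 1 rose, 3 fell and 14, with Trp53 among them, did not pass (median -0.06). Plk2, a polo-like kinase gene, had 456, 472 and 421 CPM in KO and 191, 193 and 181 CPM in WT (log2 fold change 1.26, edgeR adjusted p = 4.09e-07). Phlda3 (9.16 ± 0.13 CPM in KO and 15.5 ± 1.5 CPM in WT, -0.75, edgeR adjusted p = 0.00128) and the stress gene Gadd45a (18.2 ± 1.3 and 27.6 ± 2.5 CPM, -0.60, edgeR adjusted p = 0.00266) fell. Plk3 had 4.53 ± 0.82 CPM in KO and 8.26 ± 1.2 CPM in WT (-0.88, edgeR adjusted p = 0.00518). Mdm2 (0.18) and Ccng1 (-0.08), which p53 induces as it does Cdkn1a, did not pass.

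Of 16 FOXO and quiescence regulators, 2 rose, 1 fell and 13 did not pass (median 0.16). Klf4, a factor that restrains proliferation, had 14.0 ± 1.2 CPM in KO and 7.91 ± 0.77 CPM in WT (log2 fold change 0.82, edgeR adjusted p = 0.00129). Tob1, an antiproliferative gene, had 18.9 ± 0.74 CPM in KO and 13.8 ± 1.8 CPM in WT (0.43, edgeR adjusted p = 0.0276), and lost its call without KO replicate 1 (0.42), KO replicate 2 (0.42), WT replicate 1 (0.40) or WT replicate 2 (0.37). Foxo1, Foxo3 and Foxo4 ranged from 0.02 to 0.16 without passing.

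Among 14 other CDK genes, 2 rose and 12 did not pass (median 0.09). Cdk18 had 490, 478 and 483 CPM in KO and 319, 338 and 322 CPM in WT (log2 fold change 0.57, edgeR adjusted p = 0.00017). Cdk15 had 3.03 ± 0.3 CPM in KO and 1.58 ± 0.39 CPM in WT (0.91, edgeR adjusted p = 0.032). The Cdk15 call was lost without any of KO replicates 1, 2 and 3 (0.94, 0.96 and 0.83) or WT replicates 1 and 2 (0.73 and 0.94). DESeq2 did not call it either (0.92), so that 1 gene of the list rose. For a fall in this list edgeR gave 0 genes, 0 at an unadjusted p under 0.05 and 1 without WT replicate 3, and DESeq2 and both limma fits gave 0. Of 13 other cyclin genes edgeR called 0 in either direction, with 0 at an unadjusted p under 0.05, and DESeq2 and both limma fits called 0 (median 0.02). Ccni, the most abundant of them, had 144 ± 1.7 CPM in KO and 143 ± 7.3 CPM in WT. In the lists of cyclin E and CDK activation, pocket proteins, MuvB, turnover, S phase and G2 and M phase, edgeR called 0 genes higher in KO, with 0 at an unadjusted p under 0.05 and 0 by the other 3 tools.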

How the data were processed

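Polyadenylated RNA was read from one end on an Illumina NextSeq, per the labels' protocols. TopHat2 2.0.7, DESeq and the builds mm10 and GRCm38 are named in the submitters' processing notes. How reads were counted, with which annotation and whether by strand, is not given in the sources used here. The authors deposited raw counts per Ensembl gene and a second table of log2 values. Set against the counts, the authors' log2 values gave a median scale of 0.617 to 0.906 in KO libraries and 1.01 to 2.04 in WT libraries. Whether a single scaling per library holds for every gene was not tested. A count of 1 is listed at 0 for 3522, 2422 and 2852 genes in KO replicates 1, 2 and 3.

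Counts were fitted with edgeR 4.0.16 (R 4.3.3) with TMM factors, genotype as the model and the robust quasi-likelihood F test, on genes kept by filterByExpr (minimum count 10, minimum total count 15). Benjamini-Hochberg adjustment ran over 12011 genes, and the threshold was 0.05. The SE is the absolute log2 fold change over the square root of F. Of 45193 Ensembl identifiers, 45106 had a symbol. Exon lengths and overlaps came from the GRCm38 gene annotation and promoter windows from RefSeq. The scripts were tested on simulated data. The alternatives were RLE and upper-quartile factors, no low-count filter, a filter of at least 1 CPM in 3 libraries, DESeq2 1.42.0, limma-voom and limma 3.58.1 on the authors' log2 values. Thinned counts, a block for replicate number and fits without each library completed them.

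The 10 genes and all lists were chosen with earlier results of these data known. Genes outside the 10 were named by a rule, which took from each list up to 3 that rose and 3 that fell with the smallest adjusted p, or the most abundant where none passed. The 5 genes most like Cdk6 (leaving aside predicted models, pseudogenes and genes with an average log2 CPM under 2), the most abundant of each marker list, and Rxra, Rxrb and Lyz2 were added. A gene that this rule gave is not reported here. Genes named for overlap with a listed gene, nearness to Cdk6, sex chromosomes, or given with a fold change only, are outside this rule and were chosen after their values were seen. The SD between libraries can fall below counting error by chance in groups of 3, and counting error of a single library is the inverse square root of its count.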

Additional observations from a re-analysis of the deposited data

How the results depend on the processing

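The direction and call of Cdk6 and Cdkn2c held in all 15 alternative settings. With the replicate block, 1375 genes were called over the whole table (709 higher and 666 lower in KO), 2 of the 10 G1 genes (1 higher) and 5 higher among the other listed genes. Ccnd1 (log2 fold change 0.26) and Rb1 (0.34) lost their calls with the block. Deviations of same-numbered libraries from their group means correlated at 0.0738, -0.349 and -0.306, and those of unlike-numbered libraries at -0.147 to 0.383. With 3 libraries per group, these values cannot decide whether same-numbered libraries were paired. Leaving out 1 library at a time gave 1286 to 2607 called genes (667 to 1278 higher, 619 to 1329 lower), 2 to 4 of the 10 G1 genes (1 to 3 higher) and 5 to 11 higher among the other listed genes. DESeq2 called 2 of the 10 lower. By the longest transcript, the Cdk6 share of Cdk4 and Cdk6 was 23.6% in KO and 13.9% in WT, and the Ccnd1 share of D cyclins 80.0% in KO and 77.4% in WT. Signs turned, without a call, for Cdk4 with no filter (0.0024) and with thinned counts (0.0088). Leaving out 1 library turned the sign, with log2 fold changes of -0.0529 to 0.0283 for Cdk4, -0.306 to 0.591 for Ccnd2, -0.0321 to 0.105 for Ccnd3, -0.0227 to 0.0486 for Ccni and -1.23 to 0.0367 for the stromal gene Col1a1, which was called lower without KO replicate 3. The cause of these changes was not tested. Depth limits Ccnd2, which had 7 to 12 reads in each WT library.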
